A study of Mus musculus with 7 samples.

Results

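The dual-specificity MAP kinase phosphatases examined here were 10 genes of 22180 measured: Dusp1, Dusp2, Dusp4, Dusp5, Dusp6, Dusp7, Dusp8, Dusp10, Dusp14 and Dusp16. They were chosen by name, by an exact match of the symbol to probe sets with a single gene symbol, and for a gene with several probe sets the one with the highest mean over the 7 arrays was used. The RNA came from mouse medial prefrontal cortex (mPFC). The mice of both groups carried a ribosome tag (TRAP) together with an ArcCre transgene, so that cells in which the Arc promoter was active while tamoxifen was present kept a GFP label on them, and the labelled ribosomes were precipitated through GFP together with the mRNA they were translating. The cocaine group (4 arrays, numbered 4, 5, 6 and 7) received cocaine at 15 mg/kg for 2 days, and the shock group (3 arrays, numbered 4, 5 and 6) received 20 shocks of 0.5 mA, each lasting 2 s, for 2 days. The sources used here do not give the age, the sex, the number of animals behind an array or the time between labelling and tissue collection. Whether each array came from its own animals is likewise unknown, and the p-values below treat the arrays as separate units. Those of the group differences set a difference only against the spread between these arrays, which may in part be technical.

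MAP kinases (ERK, JNK and p38) are switched on by phosphorylation of a threonine and a tyrosine in their activation loop, and the phosphatases of this family remove both phosphates and so end the signal. Several of the genes are themselves transcribed in response to MAP kinase activity, which makes them negative feedback regulators and, in neurons, markers of recent stimulation. The family is usually divided into inducible nuclear enzymes (Dusp1, Dusp2, Dusp4, Dusp5), cytoplasmic enzymes selective for ERK (Dusp6, Dusp7) and enzymes selective for JNK and p38 (Dusp8, Dusp10, Dusp16). Dusp14 is an atypical member without the amino-terminal MAP kinase-binding domain.

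Values are the deposited log2 expression values, so that a difference of 1 is a 2-fold change, and all differences are cocaine minus shock. All 10 genes lay above 5.46, a stand-in for background under which 95% of the olfactory and vomeronasal receptor genes had their mean (genes below it are called dim). Levels of different probe sets cannot be ordered against each other. Of the excitatory neuron markers, 5 of 6 were measured (Slc17a7, Camk2a, Neurod6, Neurod2 and Tbr1), with mean levels from 8.16 to 12.17. Astrocyte, oligodendrocyte, microglia and vascular markers were above the background level too (6 of 6, 5 of 5, 6 of 6 and 7 of 7 measured genes), and inhibitory neuron markers in 6 of 7. Over all genes, cocaine array 6 had a mean correlation of 0.993 with the other arrays, against 0.996 for each of the others. The 7 arrays include no input RNA and no precipitate without the label. How far the glial and vascular markers came from labelled cells was therefore not tested. In precipitated RNA of this kind, fewer cells of a type and less RNA per cell cannot be told apart.

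Dusp1, the nuclear phosphatase that acts on ERK, JNK and p38 and is itself an immediate early gene, had the largest difference of the 10 genes. Its probe set (17342642, Entrez 19252) read 9.50, 9.33, 8.46 and 9.16 on cocaine arrays 4, 5, 6 and 7, and 8.19, 9.27 and 7.90 on shock arrays 4, 5 and 6. Shock array 5 lay among the high cocaine arrays and cocaine array 6 lay near shock array 4, so the groups overlapped. The means were 9.12 ± 0.46 (SD, n = 4) and 8.45 ± 0.72 (SD, n = 3), a difference of 0.66 (SE 0.38, 95% interval from limma -0.25 to 1.57) or 1.58-fold. It did not pass the test (limma, unadjusted p = 0.128, Benjamini-Hochberg adjusted p = 0.938 over all genes). An exact two-sided permutation of the 35 possible groupings gave p = 0.2, where 0.0286 is the smallest they can give. Leaving out shock array 5 gave a difference of 1.07, and leaving out shock array 6 one of 0.38.

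The remaining inducible nuclear genes differed less. Dusp5, a nuclear phosphatase specific for ERK, read 7.26, 7.44, 6.65 and 7.14 on the cocaine arrays and 7.05, 7.37 and 6.75 on the shock arrays, in order of array number. Cocaine array 5 and shock array 5 were the highest and cocaine array 6 the lowest, and the difference was 0.06 (SE 0.22, 95% interval -0.45 to 0.58). Dusp4, another nuclear enzyme, read 6.58, 7.05, 6.52 and 6.65 against 6.36, 7.05 and 6.61. Array 5 of each group was the highest, at 7.05 after rounding, and the difference was 0.03 (SE 0.19, 95% interval -0.43 to 0.48). Dusp2, best known from activated lymphocytes, read 6.49, 6.56, 6.63 and 6.64 against 6.56, 6.25 and 6.59. Here shock array 5 was the lowest, the reverse of its place for Dusp1, Dusp4 and Dusp5. The Dusp2 difference of 0.11 (SE 0.09, 95% interval -0.10 to 0.33) fell to 0.0063 without that array. Leaving out cocaine array 5 turned the differences of Dusp4 and Dusp5 to -0.092 and -0.042, and leaving out shock array 6 turned them to -0.0054 and -0.088. For Dusp4 the value without shock array 4 was -0.13.

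**Figure D1:**
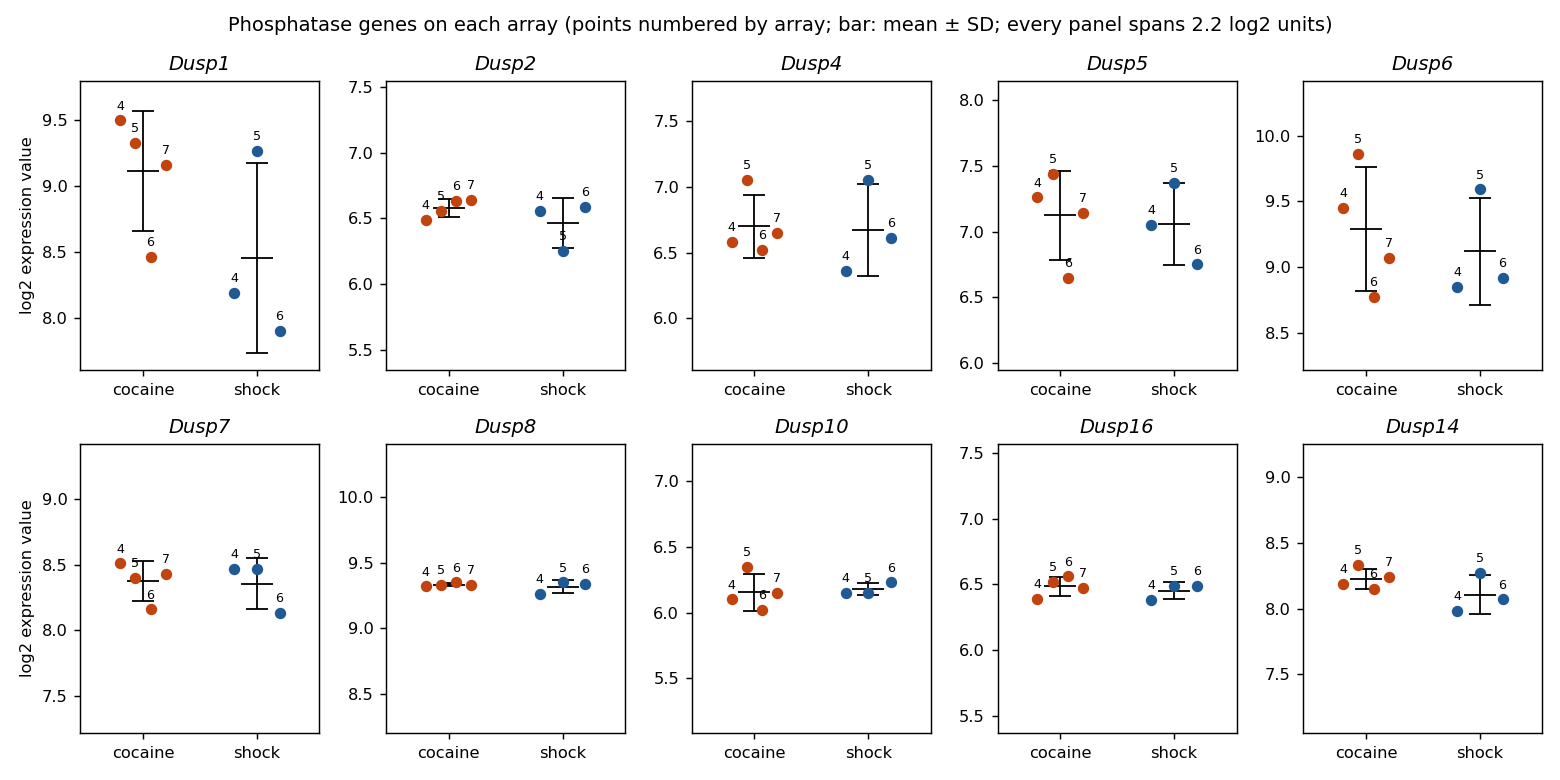
Log2 expression value of each phosphatase gene on the 4 cocaine (orange) and 3 shock (blue) arrays, numbered by array, with the group mean ± SD; every panel spans the same 2.2 log2 units. Dusp1 spans 1.60 and Dusp6 1.08 over the arrays, whereas Dusp8 spans 0.09, and the groups overlap in every panel.

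Of the ERK-selective cytoplasmic enzymes, Dusp6, a feedback inhibitor that is induced by ERK signalling, read 9.45, 9.86, 8.77 and 9.07 on the cocaine arrays and 8.85, 9.59 and 8.92 on the shock arrays. The 2 arrays numbered 5 and cocaine array 4 were high and the other 4 low. Its means were 9.29 ± 0.47 (SD, n = 4) and 9.12 ± 0.41 (SD, n = 3), and the difference was 0.17 (SE 0.29, 95% interval -0.53 to 0.87). Leaving out shock array 5 gave 0.40, and leaving out cocaine array 5 gave -0.023. A second Dusp6 probe set (17547559) stayed between 3.61 and 3.84, under the background level, with a difference of 0.08. Dusp7, the close relative of Dusp6, read 8.51, 8.40, 8.16 and 8.43 against 8.47, 8.47 and 8.13. Array 6 of each group was the lowest, and the difference was 0.02 (SE 0.12, 95% interval -0.25 to 0.29), which became -0.026 when cocaine array 4 was left out and -0.092 when shock array 6 was.

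The enzymes selective for JNK and p38 varied least. Dusp8, a phosphatase with high expression in brain, read 9.32, 9.33, 9.35 and 9.33 on the cocaine arrays and 9.26, 9.35 and 9.34 on the shock arrays. Its difference of 0.02 had the narrowest interval of the 10 genes (SE 0.03, 95% interval -0.06 to 0.10). Dusp16, a phosphatase that shuttles between nucleus and cytoplasm, lay between 6.38 and 6.56 with a difference of 0.03 (SE 0.05, 95% interval -0.10 to 0.16). Dusp10, which acts on p38 and JNK, lay between 6.02 and 6.35 and was the only one of the 10 with a lower mean in the cocaine group (difference -0.02, SE 0.08, 95% interval -0.21 to 0.16). Dusp10 held an identical value on 3 arrays (cocaine array 7 and shock arrays 4 and 5) and Dusp8 on 2 (cocaine arrays 5 and 7). Without shock array 4 the differences of Dusp8 and Dusp16 were -0.0092 and -0.0085, and that of Dusp10 became 0.023 when cocaine array 6 was left out and 0.0022 when shock array 6 was.

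Dusp14, the atypical member, read 8.19, 8.33, 8.15 and 8.24 on the cocaine arrays and 7.98, 8.27 and 8.07 on the shock arrays. Shock arrays 4 and 6 were below every cocaine array, while shock array 5 was above 3 of the 4. The means were 8.23 ± 0.08 (SD, n = 4) and 8.11 ± 0.15 (SD, n = 3), with a difference of 0.12 (SE 0.08, 95% interval -0.06 to 0.31; limma, unadjusted p = 0.16, adjusted p = 0.938). Leaving out shock array 5 gave 0.20, and leaving out shock array 4 gave 0.061.

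**Figure D2:**
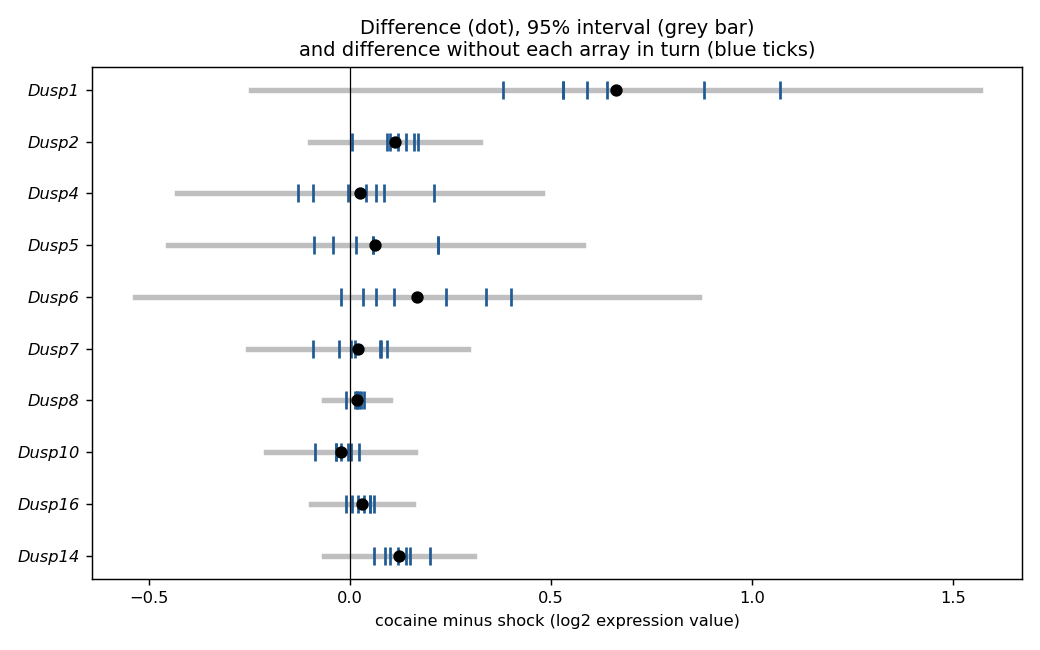
Cocaine minus shock difference of each phosphatase gene on the log2 scale (dot) with its 95% interval from limma (grey bar) and the difference after leaving out each array in turn (blue ticks). All 10 intervals include 0; the Dusp1 ticks run from 0.38 to 1.07 and those of Dusp8 stay between -0.0092 and 0.035.

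Across the family, 0 of the 10 genes passed an adjusted p of 0.05 (limma, adjusted p from 0.938 to 0.99), as did 0% of all 22180 genes. At an unadjusted p under 0.05 by limma there were 0 of 10, against 3.1% of all genes. Without shock array 5, Dusp1 (unadjusted p = 0.0139 by limma) and Dusp14 (unadjusted p = 0.0182 by limma) came under 0.05, both with an adjusted p of 0.943; 3.55% of all genes did so in that fit, and 0 of the 10 did with any other array left out. The groups did not overlap for 0 of 10, against 2.37% of all genes, and the smallest exact permutation p of the 10 was the 0.2 of Dusp1. The mean was higher in the cocaine group for 9 of 10 genes, against 50.9% of all genes, and the median difference was 0.047, against 0.0016 over all genes. With cocaine array 5 left out it was higher for 6 of 10, and likewise with shock array 4 left out. Since several of the genes went up and down together from array to array, as described next, they are not independent of each other.

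The genes of the family differed in how far they moved over the 7 arrays, whatever the group. The range from the lowest to the highest array was 1.60 for Dusp1, wider than for all but 0.216% of genes, and 1.08 for Dusp6, wider than for all but 1.61%. It was 0.79 for Dusp5 and 0.69 for Dusp4, which 5.43% and 8.31% of genes exceeded. In the middle were Dusp2 (0.39), Dusp7 (0.38), Dusp14 (0.35) and Dusp10 (0.33), which from 30.9% (Dusp2) to 40.5% (Dusp10) of genes exceeded. At the other end the range was 0.18 for Dusp16 and 0.09 for Dusp8, which 73.1% and 93.4% of genes exceeded, and the median gene had a range of 0.28.

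The genes were next set against the level of immediate early genes on each array. An immediate early score was taken for each array as the mean, over 19 transcription factor and early response genes (among them Npas4, Fos, Egr1, Junb and Nr4a1, and none of the phosphatases), of the value minus the mean of the gene over the arrays. It was 0.27, 0.44, -0.21 and 0.18 on cocaine arrays 4, 5, 6 and 7 and -0.54, 0.35 and -0.50 on shock arrays 4, 5 and 6. Shock array 5 thus stood with the high cocaine arrays, and cocaine array 6 with the low shock arrays, as for Dusp1.

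All 10 genes were compared with this score over the 7 arrays (Pearson's r and Spearman's rho, exact two-sided permutation of the pairings, Benjamini-Hochberg adjusted over the 10). These relations, and those to vascular markers and between the phosphatases given later, were chosen after the values had been seen. The share of all genes with such relations was not computed, so a pass is not shown to be particular to the phosphatases. Dusp14 had r = 0.95 (exact permutation p = 0.000794, adjusted p = 0.00794) and rho = 0.96 (exact permutation p = 0.00278, adjusted p = 0.0278). Dusp1 had r = 0.96 (exact permutation p = 0.00437, adjusted p = 0.0218) and rho = 0.86 (exact permutation p = 0.0238, adjusted p = 0.0595), so that its rank correlation did not pass. Without the 2 arrays farthest from the median score, shock arrays 4 and 6, r over the other 5 was 0.84 for Dusp14 and 0.91 for Dusp1.

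For Dusp6, r was 0.87 (exact permutation p = 0.021, adjusted p = 0.07) and rho 0.89 (exact permutation p = 0.0123, adjusted p = 0.0595). Dusp5 had r = 0.80 (exact permutation p = 0.0375, adjusted p = 0.0876) and rho = 0.86 (exact permutation p = 0.0238, adjusted p = 0.0595). Dusp4 had r = 0.77 (exact permutation p = 0.0438, adjusted p = 0.0876) and rho = 0.82 (exact permutation p = 0.0341, adjusted p = 0.0682). These 3 genes therefore missed the adjusted threshold on both measures, and their r without shock arrays 4 and 6 was 0.94, 1.0 and 0.77. The remaining 5 genes had r from -0.43 (Dusp2) to 0.54 (Dusp7) and adjusted p of 0.359 or more for r. Without shock arrays 4 and 6 their r was 0.83 for Dusp7, 0.81 for Dusp10, -0.37 for Dusp8, -0.43 for Dusp16 and -0.51 for Dusp2, so over those 5 arrays Dusp7 and Dusp10 had values like those of Dusp14 and Dusp4. With the group means taken out of both measures, r was 0.95 for Dusp1, 0.93 for Dusp14, 0.90 for Dusp6, 0.88 for Dusp5, 0.87 for Dusp4 and -0.88 for Dusp2. With 4 and 3 arrays, neither group alone holds enough arrays for a correlation of its own.

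**Figure D3:**
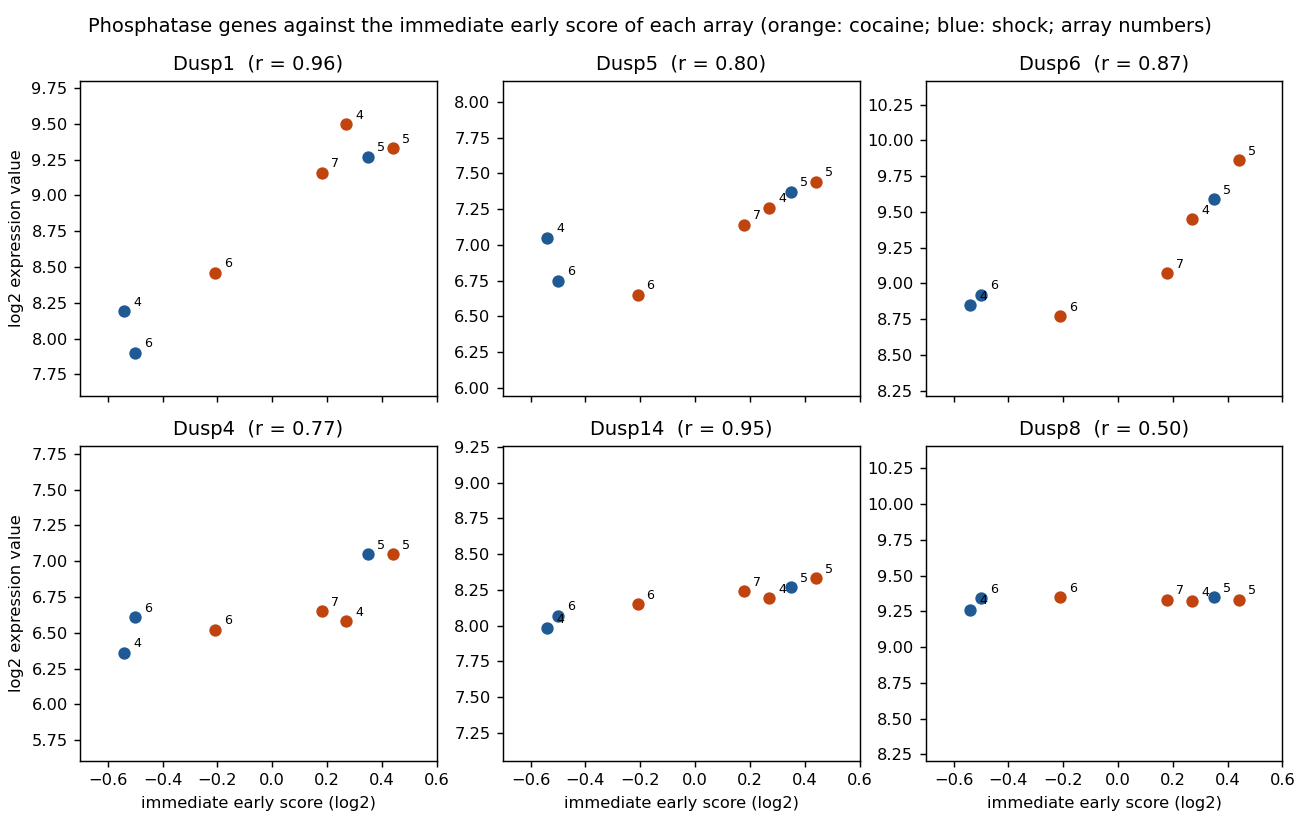
Log2 expression value of 6 phosphatase genes (vertical, 2.2 log2 units in each panel) against the immediate early score of the array (horizontal, log2 units), with cocaine arrays in orange, shock arrays in blue and array numbers beside the points. Dusp1 and Dusp14 rise with the score at r = 0.96 and r = 0.95, whereas Dusp8 stays between 9.26 and 9.35.

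Vascular marker genes had the opposite order between the groups. All 7 (Cldn5, Flt1, Kdr, Slco1a4, Pecam1, Tek and Pdgfrb) had a lower mean in the cocaine group (median -0.27, with 3 under an unadjusted p of 0.05 by limma and 0 under an adjusted one). Their score ran from -0.29 to -0.01 on the cocaine arrays and from 0.07 to 0.26 on the shock arrays, and 0 of the 7 were dim. The r of this score with Dusp1 was -0.65 (exact permutation p = 0.12, adjusted p = 0.857 over the 10 genes), with rho = -0.61 (exact permutation p = 0.167, adjusted p = 0.933). Over the 5 arrays other than cocaine array 7 and shock array 6 it was -0.45, and with the group means taken out of both measures -0.41. For the other phosphatases r ran from -0.53 (Dusp14) to 0.29 (Dusp10), with an adjusted exact permutation p of 0.857 or more. All 6 astrocyte markers had a lower mean in the cocaine group as well (median -0.17), with scores from -0.20 to 0.09 on the cocaine arrays and from -0.04 to 0.15 on the shock arrays, and all 5 measured oligodendrocyte markers had a higher one (median 0.10), with scores from -0.11 to 0.17 and from -0.23 to 0.05. The part of these glial markers in the values of the phosphatases was not tested.

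Between the phosphatases, 31 of the 45 pairs had a positive r over the 7 arrays. The share among pairs of other genes was not computed, and pairs that share a gene are not independent. Dusp5 and Dusp6 had r = 0.90 (exact permutation p = 0.00754, adjusted p = 0.17) and rho = 0.96 (exact permutation p = 0.00278, adjusted p = 0.125), and r was 0.99 over the 5 arrays not numbered 6. Dusp8 and Dusp16, both selective for JNK and p38, had r = 0.80 (exact permutation p = 0.00595, adjusted p = 0.17) and rho = 0.77 (exact permutation p = 0.0492, adjusted p = 0.298), with r = 0.93 without shock arrays 4 and 5. Dusp4 and Dusp6 had r = 0.85 (exact permutation p = 0.0133, adjusted p = 0.173) and rho = 0.86 (exact permutation p = 0.0238, adjusted p = 0.268), and r was 0.40 without the arrays numbered 5, on which that relation rests. Adjusted over the 45 pairs, 0 passed for r and 9 had an unadjusted exact permutation p under 0.05.

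**Figure D4:**
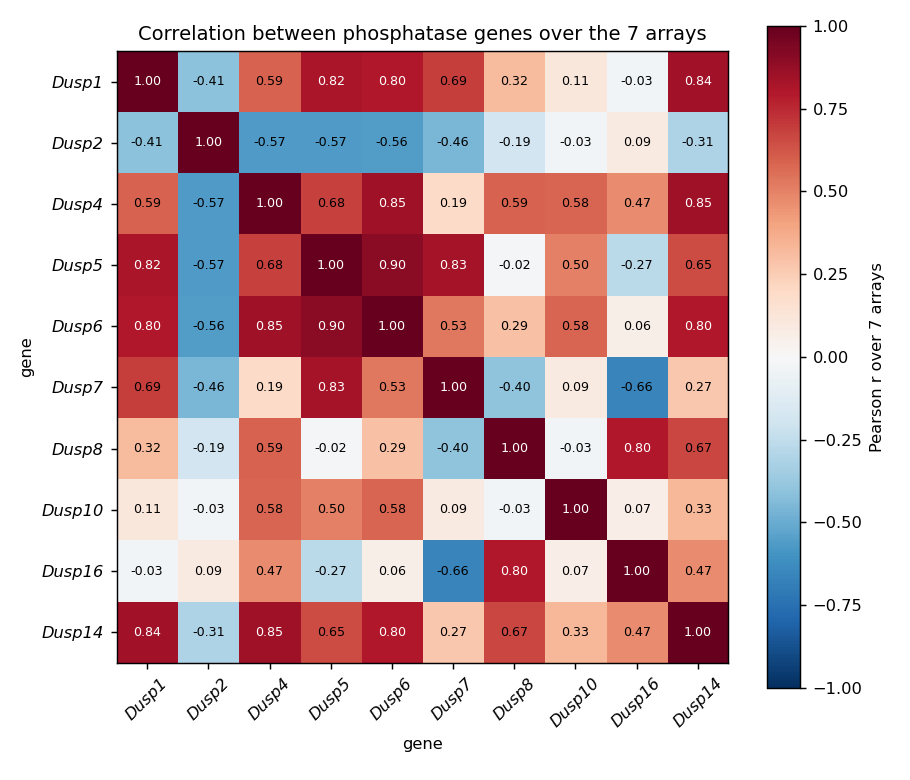
Pearson's r over the 7 arrays for each pair of phosphatase genes (both axes list the genes by role; colour from -1 in blue to 1 in red, with r printed in each cell). Dusp1, Dusp4, Dusp5, Dusp6 and Dusp14 have r between 0.59 and 0.90 with each other, and Dusp2 has r below 0 with every gene but Dusp16.

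The genes most like Dusp1 over the 7 arrays, among 12636 named genes above background, were Gadd45b (r = 0.981), Fos (r = 0.978) and Gadd45g (r = 0.973), each with rho = 0.96. Gadd45b and Gadd45g encode stress-responsive proteins and Fos a subunit of the transcription factor AP-1. Those most like Dusp6 were Tiparp (r = 0.964), an ADP-ribosyltransferase gene, Klf10 (r = 0.961), a zinc finger factor gene, and Nab2 (r = 0.956), whose product is a corepressor of Egr factors. The highest of so many correlations over 7 points are high in any case, and they are given here as a description.

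Promoter windows of 250 bases before the start site were taken from RefSeq (GRCm38.p6) for 9 of the 10 genes, all but Dusp4. They are shown for Dusp1, Dusp5 and Dusp6, which varied together, and for Dusp8, which hardly varied, with motif matches in capitals. The window of Dusp14, which also varied with these genes, held no match and is not shown. The motifs searched on both strands were the full cAMP response element TGACGTCA (bound by CREB), its shorter core TGACG (which lies within it), the AP-1 site TGANTCA, and the CArG box bound by serum response factor. Dusp1 lies on the minus strand (window chr17:26508473-26508722), Dusp5 on the plus strand (chr19:53528895-53529144), Dusp6 on the plus strand (chr10:99262981-99263230) and Dusp8 on the minus strand (chr7:142095285-142095534).
Dusp1: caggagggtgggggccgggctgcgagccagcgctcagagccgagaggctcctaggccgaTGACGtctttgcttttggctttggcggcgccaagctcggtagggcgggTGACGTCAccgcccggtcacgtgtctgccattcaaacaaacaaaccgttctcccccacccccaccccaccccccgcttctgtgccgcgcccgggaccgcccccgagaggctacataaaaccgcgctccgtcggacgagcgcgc
Dusp5: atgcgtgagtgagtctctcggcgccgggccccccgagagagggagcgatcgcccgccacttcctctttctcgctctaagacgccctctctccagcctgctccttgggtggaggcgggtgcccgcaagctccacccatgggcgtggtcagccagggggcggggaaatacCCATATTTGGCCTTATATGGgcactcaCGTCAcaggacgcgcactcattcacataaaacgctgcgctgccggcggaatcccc
Dusp6: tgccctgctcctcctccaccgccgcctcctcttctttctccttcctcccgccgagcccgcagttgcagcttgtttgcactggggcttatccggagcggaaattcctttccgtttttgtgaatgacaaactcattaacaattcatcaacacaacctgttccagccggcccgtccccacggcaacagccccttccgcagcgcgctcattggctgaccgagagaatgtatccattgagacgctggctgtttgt
Dusp8: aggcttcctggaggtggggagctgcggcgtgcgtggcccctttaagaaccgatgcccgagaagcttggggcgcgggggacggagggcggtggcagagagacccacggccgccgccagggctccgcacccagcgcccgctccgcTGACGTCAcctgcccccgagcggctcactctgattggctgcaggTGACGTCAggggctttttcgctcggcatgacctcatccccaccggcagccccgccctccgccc

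In Dusp1 the full element began 143 bases before the start site, and a further core stood 191 bases before it. Dusp5 held 2 adjoining CArG boxes, beginning 82 and 72 bases before the start, and a core on the opposite strand that began at 55. Dusp8, with nearly the same value on all arrays, held 2 full elements, at 107 and 63 bases. Dusp16 held 1 core at 70 bases, and the windows of Dusp2, Dusp6, Dusp7, Dusp10 and Dusp14 held none of the 4 motifs. Among 32851 windows of this length, 1.55% held the full element, 17.8% the core, 6.75% the AP-1 site and 1.47% a CArG box. A match describes the letters only, and no match says nothing of the factor.

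Around the phosphatases, the cascade they act on showed small differences. Of 57 MAP kinase cascade genes listed, 47 were measured, and the rest were not analysed here. None of the 47 passed the adjusted threshold (limma, 0 higher and 0 lower, with 2 higher at an unadjusted p under 0.05), 26 had a higher mean in the cocaine group, and the median difference was 0.00094 within a range of -0.09 to 0.14. Mapk11, which encodes a p38 kinase, read 8.89, 8.93, 8.96 and 9.02 on the cocaine arrays and 8.87, 8.72 and 8.82 on the shock arrays. Its groups did not overlap, as for 1.25% of all genes in this direction, and the difference was 0.14 (SE 0.05; limma, unadjusted p = 0.0241, adjusted p = 0.938). Leaving out shock array 5 raised the unadjusted limma p to 0.0772, and leaving out cocaine array 7 raised it to 0.054. Map3k11, an upstream kinase of the JNK pathway, differed by 0.14 (0.09 without shock array 6), Mapk14, the gene of another p38 kinase, by 0.09 (0.059 without shock array 6), and the dim gene Mapkapk3, a kinase downstream of p38, by -0.08 (-0.053 without shock array 5).

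Of 22 listed phosphatases outside the 10 (further dual-specificity genes, slingshot phosphatases and the tyrosine phosphatases Ptpn5, Ptpn7 and Ptprr), 21 were measured. By limma 0 passed the adjusted threshold and 0 an unadjusted p of 0.05, 9 were higher and 12 lower, and the median was -0.0049. The 4 with the smallest p were Ptpn7 (0.16), a tyrosine phosphatase of MAP kinases, Dusp28 (-0.10), and Ssh3 and Ssh2 (0.07 and 0.06), which act on the actin regulator cofilin. Single arrays moved all 4: Ptpn7 was 0.072 and Dusp28 -0.028 without cocaine array 6, Ssh3 was 0.0043 without shock array 6, and Ssh2 was 0.018 without cocaine array 5. Of 18 genes of ERK-induced feedback, such as the sprouty genes and the Etv factors, 17 were measured. By limma 0 passed either threshold, 10 were higher and 7 lower, and the median was 0.012. Among them were Epha4 (0.09), an ephrin receptor gene, Ccnd1 (-0.12), the cyclin D1 gene, Spred1 (-0.06), an inhibitor of the Ras pathway, and Errfi1 (0.11), a feedback inhibitor of the EGF receptor. Without shock array 6, Ccnd1 was -0.015 and Errfi1 0.012, while Errfi1 was 0.25 without shock array 5, 0.043 without cocaine array 5 and Spred1 -0.021 without cocaine array 6.

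The 19 immediate early genes all had a higher mean in the cocaine group, against 50.9% of all genes, with a median of 0.26. By limma 0 passed the adjusted threshold and 2 came under an unadjusted p of 0.05. Those 2 were Npas4 (1.49, and 0.87 to 2.09 with each array left out in turn) and Btg2 (1.01, and 0.70 to 1.42), which stayed under 0.05 in 2 of the 7 leave-outs, those of cocaine array 6 and of shock array 5. They were followed by Egr4 (0.54, and 0.30 to 0.84) and Fos (1.18, and 0.64 to 1.90). For each of these named genes shock array 5 was the highest shock array and cocaine array 6 the lowest cocaine array. Genes that move together in this way are not independent of each other. The median over the 19 became 0.42 when shock array 5 was left out and 0.13 when shock array 4 was. Arc, whose promoter drove the labelling, read 9.62, 10.10, 8.77 and 9.53 against 8.42, 9.88 and 8.20, with the same high and low arrays as Dusp1 and a difference of 0.67 (SE 0.47; 0.36 without shock array 6 and 1.20 without shock array 5; limma, unadjusted p = 0.199, adjusted p = 0.938).

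**Figure D5:**
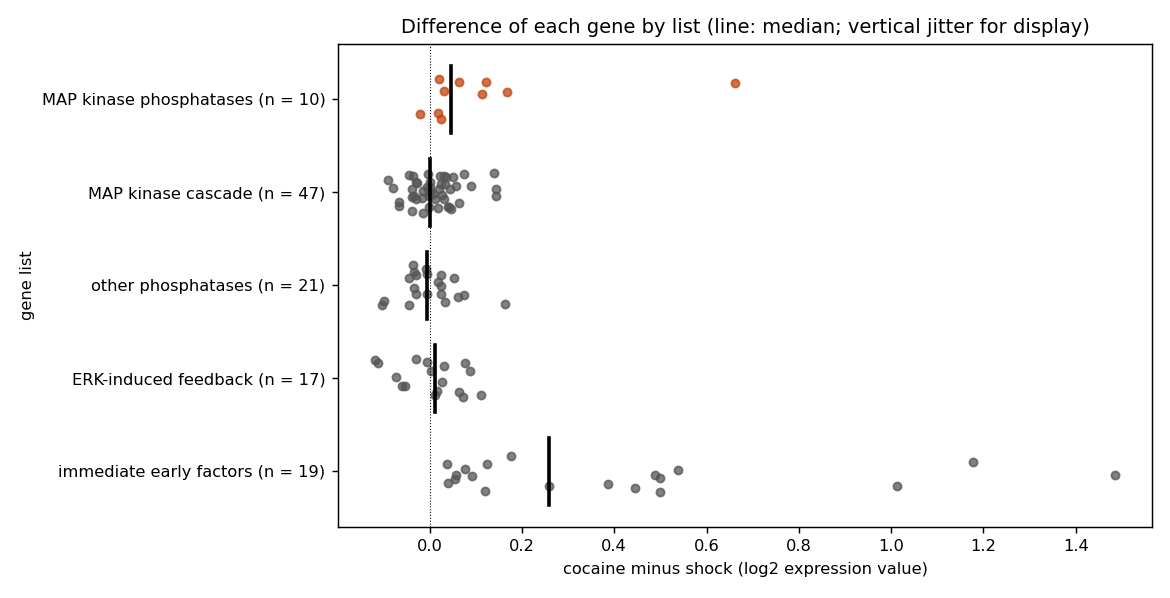
Cocaine minus shock difference (log2, horizontal) of each gene in the 10 phosphatases (orange) and the 4 other lists (grey), with a black line at the median of each list. Dusp1 at 0.66 lies among the immediate early factors, whose median is 0.26, and away from the cascade genes, which lie between -0.09 and 0.14.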

How the data were processed

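Biotin-labelled RNA was hybridised to 7 one-colour Affymetrix arrays. The log2 values of 41345 probe sets were used as deposited, a scale read from the values (1.12 to 13.44). Per the submitters' processing notes, Transcriptome Analysis Console was used. How the arrays were summarized, background-corrected and normalized is not stated there. Array medians were 5.44 to 5.47, so a difference is measured against the bulk of probe sets. Precision is limited by the number of arrays.

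Probe sets with 1 symbol in the platform annotation (23521) gave 22180 genes, and the brightest probe set of a gene was kept. Groups were compared by lmFit and eBayes of limma 3.58.1 (R 4.3.3), two-sided and without a covariate, with Benjamini-Hochberg adjustment over all genes at 0.05, and for single genes with exact permutation over 35 groupings. The fit was tested on simulated data.

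The 10 genes and the lists were chosen with earlier results of these data known. All 10 were named, with Arc, Npas4, 4 genes per list of smallest unadjusted p, and the 3 genes most correlated with each of Dusp1, Dusp2, Dusp4, Dusp5 and Dusp6, leaving out dim and predicted genes, chemosensory receptors and small RNAs. The alternatives tried were no moderation, trend and robust moderation, array weights, quantile normalization, centring on the median, averaged probe sets, a filter on dim genes, each array left out in turn, and the title number as a replicate block.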

Additional observations from a re-analysis of the deposited data

Results flagged for a closer look

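Among the 4 cocaine arrays, 5 of 37 measures had 1 array far from the rest, with a gap to the nearest array, as a share of the range, above Dixon's 95% limit, where chance gives about 5% of independent measures without ties, here 1.85. None of them was one of the 10 phosphatases. Cocaine array 6 was lowest for Dusp28 (0.831) and for Ccnd1 (1.0) and highest for Ssh3 (0.856). Such a share can be large where the range is small. On cocaine arrays 4, 5, 6 and 7, Ccnd1 read 8.94, 8.94, 8.88 and 8.94, and Ssh3 6.66, 6.68, 6.79 and 6.68. Cocaine array 5 was highest for Ssh2 (0.911) and for Errfi1 (0.862). For 55.9% of the probe sets at least 2 arrays held the same value, which favours a large gap.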

How the results depend on the processing

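No phosphatase passed the adjusted threshold under any alternative run (smallest adjusted p = 0.871 by limma), nor did any gene. The median over the 10 ranged from 0.0156 to 0.14 when each array was left out. Of 80 differences under the other alternatives, 1 changed sign (Dusp10, 0.011 with array weights). Of 70 with 1 array left out, 12 did, in 7 genes: Dusp4 (-0.13 to 0.21), Dusp5 (-0.088 to 0.22), Dusp6 (-0.023 to 0.40), Dusp7 (-0.092 to 0.092), Dusp8 (-0.0092 to 0.035), Dusp10 (-0.086 to 0.023) and Dusp16 (-0.0085 to 0.061). The cause was not tested. Genes at an unadjusted p under 0.05 were 688 by limma, 419 without moderation and 449 of the genes above background, a smaller number tested. Immediate early genes there were 2 of 19. They were 10 without shock array 5, 2 without cocaine array 6, 0 with each of the other 5 arrays left out, 0 without moderation and 4 with the replicate block.

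Deviations of same-numbered arrays correlated at 0.13, 0.06 and 0.16 for numbers 4, 5 and 6, and those of differently numbered arrays at -0.12 to 0.09. For numbers 4 and 6 the same-numbered value was the highest, whereas shock array 5 correlated best with cocaine array 7 (0.09). The labels name no pairs, so the main fit left the number out. These values do not settle whether same-numbered arrays share an effect. Cocaine array 7 has no shock array of its number, so it adds nothing to a difference once the number is a block. The differences then rest on the arrays numbered 4, 5 and 6 and equal those with cocaine array 7 left out. With the title number as a replicate block the median over the 10 was 0.0487 and Dusp1 differed by 0.64. By limma 0 genes passed and 915 had an unadjusted p under 0.05. In that fit the unadjusted limma p fell for Dusp1 (0.0818), Dusp4, Dusp5, Dusp6 (0.223), Dusp14 (0.0747) and Dusp16. It rose for Dusp2 (0.361), Dusp7, Dusp8 and Dusp10, and that of Arc was 0.0415.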

Other observations

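The genes most like the remaining inducible nuclear phosphatases over the 7 arrays are given as values. Dusp4 was most like Fosl2 (r = 0.991, rho = 1.0), an AP-1 subunit gene, Ppp1r15b (r = 0.974, rho = 0.68), a regulatory subunit of an eIF2alpha phosphatase, and the somatostatin receptor gene Sstr2 (r = 0.972, rho = 0.90). Fosl2 ranged over 1.0 on the log2 scale and differed by 0.05 between the groups. Dusp5 was most like the folliculin gene Flcn (r = 0.982), Bcl2l13 (r = 0.977), of the Bcl2 family, and Rsrp1 (r = 0.974). Rsrp1 ranged over 0.94, and Flcn over 0.19. Dusp2 was most like Ndufaf8 (r = 0.996), a complex I assembly gene, Usp14 (r = 0.992), a proteasome-associated deubiquitinase gene, and Mettl14 (r = 0.985), of the RNA methylation complex, whose ranges were 0.39, 0.18 and 0.12.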
